A study of Mus musculus with 8 samples.

Results

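A set of 38 cell cycle and replication genes was examined in mouse liver, of which 36 were measured among the 22180 genes named on the array. The set was chosen by function, as a list of symbols. For each symbol, the transcript clusters (the array's unit for a gene) annotated with that gene alone were taken, and the cluster with the highest mean over all arrays stood for the gene. Ccnb1 had no such cluster, and Ccne2 had only one shared with a neighbouring gene, so neither is described here. The livers came from male mice on the C57BL/6J background fed normal chow. Of these, 3 were wild type (WT) and 5 were Abhd15 knockouts (KO), which lack a hydrolase-domain protein studied mainly in fat cells. The design text gives an age of 14 weeks and a meal of 1 hour after a night without food. The sample descriptions give that number of weeks as an upper limit for the time on the diet. Feeding and strain are described alike for both groups. The sources used here give neither how the allele was made nor which part of the gene it removes.

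In adult liver most hepatocytes rest outside the division cycle and can re-enter it after injury or loss of tissue. Entry is driven by D-type cyclins with Cdk4 or Cdk6, which phosphorylate the pocket protein encoded by Rb1 and release E2F factors. E2F factors turn on the genes of DNA replication, and later a second wave of genes, regulated through FOXM1, B-MYB and the DREAM complex, builds and controls the mitotic spindle. Hepatocytes often skip cell division and become polyploid, a process in which the atypical repressor E2F8 takes part.

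Both waves have sequence elements in their promoters, so the start regions of 4 genes are shown before their values. Of the 38 genes, 30 had at least 1 window in RefSeq's table (GRCm38.p6), each spanning 250 bases before to 50 after an annotated start, 33 windows in all. Capitals mark matches on either strand to the E2F element (TTTCGCGC or TTTGGCGC), to the cell cycle homology region, or CHR (TTTGAA or TTCGAA), and to the CCAAT box. Mki67 (chr7:135716330-135716629, minus strand) and E2f8 (chr7:48881547-48881846, minus strand) are shown because their KO and WT values did not overlap. Mcm6 (chr1:128359656-128359955, minus strand) held the most E2F matches of any member and Top2a (chr11:99024140-99024439, minus strand) the most CHR matches. These windows were picked after the values and matches had been seen.
Mki67: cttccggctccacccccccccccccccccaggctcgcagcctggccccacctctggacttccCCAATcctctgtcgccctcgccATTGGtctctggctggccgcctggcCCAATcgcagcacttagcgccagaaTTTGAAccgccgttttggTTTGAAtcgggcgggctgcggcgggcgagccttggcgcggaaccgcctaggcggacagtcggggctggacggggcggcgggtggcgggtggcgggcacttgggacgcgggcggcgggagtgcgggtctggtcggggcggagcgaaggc
E2f8: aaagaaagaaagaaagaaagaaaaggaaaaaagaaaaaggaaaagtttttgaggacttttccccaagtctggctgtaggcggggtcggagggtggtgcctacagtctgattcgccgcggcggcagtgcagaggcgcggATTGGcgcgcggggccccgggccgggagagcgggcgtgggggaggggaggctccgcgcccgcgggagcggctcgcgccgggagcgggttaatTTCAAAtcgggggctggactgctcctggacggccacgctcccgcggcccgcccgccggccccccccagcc
Mcm6: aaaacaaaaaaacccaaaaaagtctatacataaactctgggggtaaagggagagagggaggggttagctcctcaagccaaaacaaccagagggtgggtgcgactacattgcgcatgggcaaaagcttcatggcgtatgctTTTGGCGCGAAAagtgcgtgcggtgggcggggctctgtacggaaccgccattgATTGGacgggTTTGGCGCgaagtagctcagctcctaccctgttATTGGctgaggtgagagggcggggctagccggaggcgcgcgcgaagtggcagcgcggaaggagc
Top2a: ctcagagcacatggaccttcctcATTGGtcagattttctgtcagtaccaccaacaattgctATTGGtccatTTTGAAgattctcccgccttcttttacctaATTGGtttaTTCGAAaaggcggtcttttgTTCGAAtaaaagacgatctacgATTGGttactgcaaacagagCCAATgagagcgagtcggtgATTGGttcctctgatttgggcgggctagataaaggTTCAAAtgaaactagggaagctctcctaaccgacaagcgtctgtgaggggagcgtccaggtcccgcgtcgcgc
The Mcm6 window held 3 E2F matches, a pair of them overlapping each other, and no CHR match. The Top2a window held 4 CHR matches and 6 CCAAT matches, and no E2F match. Mki67 had 2 CHR and 3 CCAAT matches, and E2f8 had 1 of each. The window of Birc5, the third member whose groups did not overlap, had no match to any of the 3.

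Across the members the matches differed by role. The E2F element was found in the windows of 4 of 6 licensing genes (Mcm3, Mcm5, Mcm6 and Mcm7) and of Cdk1, and in 0 of 6 mitotic kinase and checkpoint genes. The CHR was found in 5 of those 6 mitotic genes, in both proliferation markers and in 2 of the 6 licensing genes. Over all members' windows the E2F element was present in 15.2%, against 0.813% of the 32851 windows of all genes. The CHR was present in 36.4% against 19.2%, and the CCAAT box in 72.7% against 37.4%. A match is a run of letters and does not show that a factor binds there.

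RNA of each liver was put on an Affymetrix Mouse Gene 2.0 ST array, which yields 1 log2 value per cluster. The array medians over all 41345 clusters lay between 2.99 and 3.05. Abhd15 read 5.647, 5.812 and 5.460 in WT and 5.137, 5.042, 5.206, 5.175 and 5.035 in KO, so each KO array was below each WT array (log2 difference -0.52, SE 0.129, exact permutation p = 0.0179, limma adjusted p = 0.795). A dimmer Abhd15 cluster overlapped between groups, with a log2 difference of -0.68 (SE 0.323). Hepatocyte markers such as Alb and Cps1 had mean values from 10.6 to 13.1, as the tissue label states. The first principal component separated KO arrays 1 and 2 from the rest (scores 55.2 and 50.8, next highest 0.22), and the second separated KO array 4 (70.0, next highest 10.6). A list of rapidly induced genes such as Fos and Egr1 averaged 6.496 and 6.600 in KO arrays 1 and 2 and between 4.859 and 5.216 in the other 6 arrays. A list of genes repressed by insulin or raised by fasting, such as Igfbp1 and G6pc, averaged 8.602 in both KO arrays 1 and 2. It averaged between 7.506 and 7.779 in the other 6 arrays, though Cited2 of that list was lowest in KO array 1. Whether the feeding state of these mice differed was not tested. For some members, values without KO arrays 1 and 2 or KO array 4 are given with the result. Each sample is described as coming from 1 mouse.

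The level of each gene was set against the median of its array, as a rough guide to signal. Probes differ in brightness, so levels of different genes are not compared with each other, and no detection call was used. A log2 difference of a gene near or below the median compares dim signals and is not a fold change of its RNA. As a reference, olfactory receptor clusters, not expected in liver, had their 95th percentile between 2.86 and 3.04 on the 8 arrays, close to the array median, and 87.7% of 1108 such clusters lay at or below the median on every array. Of the 36 members, 6 lay at or below the array median on every array, 20 lay above it on every array and 10 crossed it. Among all 23521 clusters with a single symbol, 33.0% lay at or below the median on every array and 47.2% above it. The mitotic kinase and checkpoint members lay near or below the median of their array, and most members of G1 and of replication lay above it.

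**Figure D1:**
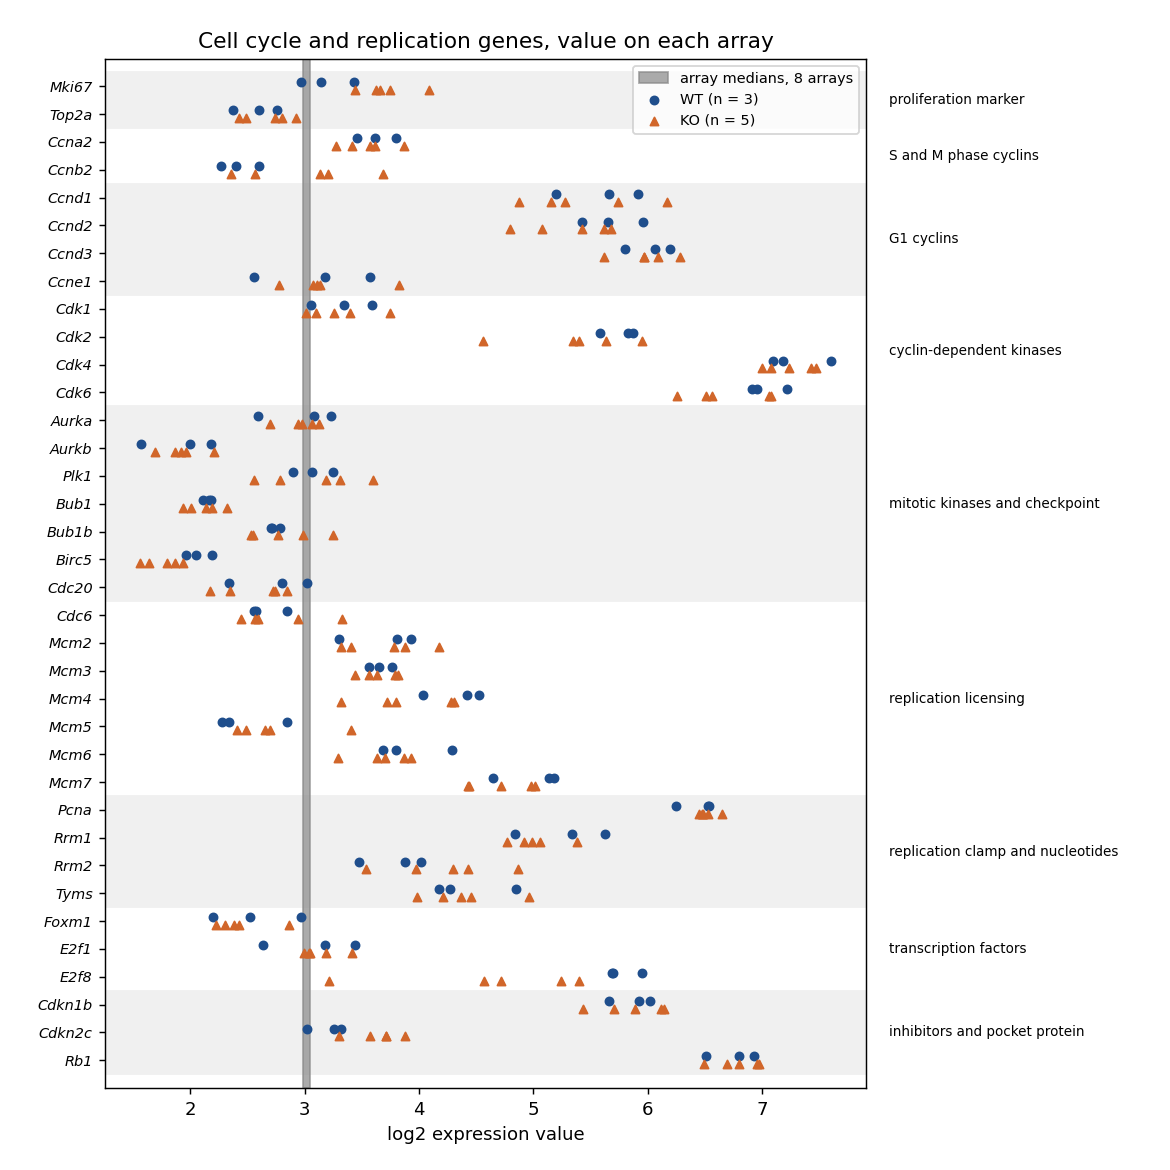
Log2 expression value of the 36 members on each array, grouped by role, with 3 WT livers as circles, 5 KO livers as triangles and the grey band spanning the array medians of 2.99 to 3.05. Mitotic kinase and checkpoint genes lie around or below the band, while cyclins D, Cdk2, Cdk4, Cdk6, Pcna, Rrm1, Cdkn1b and Rb1 lie well above it.

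Mitotic kinases and checkpoint genes seldom exceeded the array median. None of the 7 lay above the array median on every array, and 4 of them (Aurkb, Bub1, Birc5 and Cdc20) were at or below it on all 8. Aurkb, the kinase of the chromosomal passenger complex, ranged from 1.570 to 2.207 over all arrays. Bub1, a spindle checkpoint kinase, ranged from 1.935 to 2.325. Cdc20, which activates the anaphase-promoting complex, averaged 2.72 ± 0.349 (SD, n = 3) in WT livers and 2.56 ± 0.291 (SD, n = 5) in KO livers. Aurka and Plk1, kinases of spindle assembly and mitotic entry, had means over all arrays of 2.97 and 3.08 and crossed the median. Bub1b, another checkpoint component, exceeded it on 1 array, KO array 1 (3.244). None of these 7 genes passed the adjusted threshold.

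Birc5, which encodes survivin, a partner of Aurora B, was the member of this group with non-overlapping values. It read 2.047, 1.963 and 2.194 in WT and 1.795, 1.932, 1.865, 1.641 and 1.559 in KO. Every KO array was below every WT array, with a limma adjusted p of 0.82 and an exact permutation p of 0.0357. All 8 values lay well under the array medians and the olfactory receptor percentile, so a signal above background was not shown and the size of the difference is not given.

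The proliferation markers are genes whose RNA is made mainly in cycling cells. Mki67, the gene of the antigen used to stain cycling cells, read 2.968, 3.433 and 3.141 in WT and 4.088, 3.622, 3.437, 3.658 and 3.746 in KO. Every KO array was above every WT array, although KO array 3 exceeded WT array 2 by a few thousandths only. WT livers averaged 3.18 ± 0.235 (SD, n = 3) and KO livers 3.71 ± 0.239 (SD, n = 5), for a log2 difference of 0.53 (SE 0.172, 95% interval 0.15 to 0.91). WT array 1 was below its array median and the other WT arrays were only a little above theirs, so no fold change is given. The exact permutation p was 0.0179, the smallest that 56 divisions of 8 arrays can give, while the limma adjusted p was 0.795. Without KO arrays 1 and 2 the difference was 0.43, and with any single array left out it lay between 0.42 and 0.66.

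Top2a, a topoisomerase needed to separate chromosomes, was the other marker. It read 2.602, 2.372 and 2.760 in WT and 2.923, 2.740, 2.485, 2.427 and 2.800 in KO, below the array median everywhere. The groups overlapped, with a log2 difference of 0.10 (95% interval -0.25 to 0.45). Foxm1, which encodes the activator of the mitotic wave, was below the median on every array too, at 2.56 ± 0.383 (SD, n = 3) for WT livers and 2.44 ± 0.249 (SD, n = 5) for KO livers.

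The cyclins of S phase and mitosis differed in their spread. Ccnb2, a cyclin partner of Cdk1, read 2.266, 2.400 and 2.603 in WT and 3.683, 3.132, 2.562, 3.204 and 2.355 in KO. KO arrays 1, 2 and 4 were above the array median and above all WT arrays, while KO arrays 3 and 5 lay within the WT range. The log2 difference of 0.56 (95% interval -0.03 to 1.16) had a limma adjusted p of 0.838 and an exact permutation p of 0.161. All 3 WT values were below the array median and the olfactory receptor percentile, so this difference is taken against a signal not shown to be above background. It was 0.28 without KO arrays 1 and 2, and 0.39 without KO array 1. Ccna2, the cyclin of S and G2 phase, was above the median on every array, from 3.271 to 3.873, and had a log2 difference of -0.08 (95% interval -0.43 to 0.28). Cdk1, the kinase that drives mitosis, ranged from 3.012 to 3.750 with a log2 difference of -0.03.

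The D-type cyclins of G1 were above the array median on every array. Ccnd1, the D-type cyclin induced by growth factors, read 5.915, 5.659 and 5.203 in WT and 4.878, 5.276, 5.739, 5.159 and 6.172 in KO. The KO values lay on both sides of the WT values, lowest in KO array 1 and highest in KO array 5, and the log2 difference of -0.15 had a 95% interval of -0.77 to 0.47. It was 0.10 without KO arrays 1 and 2. Ccnd2 read 5.653, 5.961 and 5.429 in WT and 5.682, 4.799, 5.617, 5.072 and 5.430 in KO, with the lowest values in KO arrays 2 and 4. Its log2 difference was -0.36 (95% interval -0.85 to 0.12). Ccnd3 read 6.196, 6.067 and 5.801 in WT and 6.093, 5.967, 6.285, 5.620 and 5.965 in KO, the closest match between groups of the D-type cyclins, with a log2 difference of -0.04 (95% interval -0.41 to 0.34). Ccne1, the cyclin of S phase entry, crossed the median, from 2.553 to 3.828.

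The partner kinases Cdk4 and Cdk6 were above the median on every array as well. Cdk4 read 7.606, 7.099 and 7.186 in WT and 7.470, 7.0, 7.239, 7.080 and 7.429 in KO. Its log2 difference was -0.05 (95% interval -0.43 to 0.32), and the groups overlapped. Cdk6 read 7.218, 6.959 and 6.915 in WT and 6.562, 6.260, 6.511, 7.064 and 7.077 in KO. KO arrays 1, 2 and 3 were below all WT arrays and KO arrays 4 and 5 within the WT range, with a log2 difference of -0.34 (95% interval -0.79 to 0.12) that was -0.15 without KO arrays 1 and 2. Cdk2, the partner of cyclins E and A, had a log2 difference of -0.38 (95% interval -0.96 to 0.20), which was -0.18 without KO array 4, its lowest array at 4.562, and -0.58 without KO arrays 1 and 2. Each of the 4 kinases had a lower mean in KO and none passed the adjusted threshold. The signs of Cdk1 and Cdk4 turned when single arrays were left out.

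Brakes on this step were also present. Cdkn1b, an inhibitor of Cdk2 complexes, read 5.660, 6.019 and 5.927 in WT and 5.890, 6.119, 6.143, 5.434 and 5.708 in KO, a log2 difference of -0.01 (95% interval -0.42 to 0.40). Rb1 read 6.795, 6.512 and 6.927 in WT and 6.490, 6.955, 6.975, 6.800 and 6.697 in KO, a log2 difference of 0.04 (95% interval -0.31 to 0.39). For both, the groups overlapped over nearly their whole range. Another cluster for Rb1 was dim, with a mean of 2.16.

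Cdkn2c, an INK4 inhibitor of Cdk4 and Cdk6, was higher in most KO livers. It read 3.321, 3.017 and 3.260 in WT and 3.708, 3.876, 3.714, 3.570 and 3.299 in KO. KO arrays 1 to 4 were above all WT arrays, while KO array 5 lay just under WT array 1. All values were dim. WT array 2 was barely above its array median of 2.990 and its olfactory receptor percentile of 3.01, so no fold change is given. The log2 difference was 0.43 (SE 0.156, 95% interval 0.09 to 0.78), with a limma adjusted p of 0.795 and an exact permutation p of 0.0536. Without KO arrays 1 and 2 the difference was 0.33, and limma's unadjusted p went from 0.0186 to 0.088.

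Replication licensing genes were mostly above the array median. The Mcm genes encode the helicase loaded at origins with the help of Cdc6, and 5 of them (Mcm2, Mcm3, Mcm4, Mcm6 and Mcm7) were above the array median on every array. Mcm7 averaged 4.99 ± 0.295 (SD, n = 3) in WT livers and 4.72 ± 0.281 (SD, n = 5) in KO livers, for a log2 difference of -0.27 (95% interval -0.70 to 0.16). Mcm4 had means of 4.33 ± 0.254 (SD, n = 3) and 3.88 ± 0.415 (SD, n = 5), a log2 difference of -0.44 (95% interval -0.95 to 0.07) that was -0.30 without KO array 4. Mcm5 and Cdc6 were mostly below the median, with means of 2.64 and 2.73, and the difference of Mcm5 went from 0.24 to 0.05 without KO arrays 1 and 2. Of the 7 genes, 3 had a higher and 4 a lower mean in KO, every interval covered 0, and the signs of Mcm2 and Mcm3 turned when single arrays were left out.

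The clamp and nucleotide genes were above the median on every array, all 4 of them. Pcna, the sliding clamp of replication and repair, was the steadiest of all members, with a within-group SD of 0.114. It read 6.249, 6.539 and 6.526 in WT and 6.648, 6.488, 6.480, 6.452 and 6.529 in KO, a log2 difference of 0.08 (95% interval -0.20 to 0.36). Rrm1 and Rrm2 encode the large and small subunits of ribonucleotide reductase. Rrm1 had a log2 difference of -0.24 (95% interval -0.68 to 0.19) and Rrm2 one of 0.43 (95% interval -0.16 to 1.02), and both intervals covered 0. With single arrays left out Rrm1 ranged from -0.46 to -0.07 and Rrm2 from 0.27 to 0.60. Rrm2 was highest in KO array 5, at 4.864, and its other cluster, with a mean of 1.7, had a difference of 0.03. Tyms, thymidylate synthase, had a log2 difference of -0.03 (95% interval -0.54 to 0.47).

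The largest difference belonged to E2f8. It read 5.947, 5.698 and 5.687 in WT and 4.568, 5.401, 5.246, 3.211 and 4.714 in KO. The WT livers lay close together, and every KO liver lay below them, scattered over a range of more than 2 log2 units with KO array 4 lowest and near its array median of 3.050. WT livers averaged 5.78 ± 0.147 (SD, n = 3) and KO livers 4.63 ± 0.866 (SD, n = 5). That is a log2 difference of -1.15 (SE 0.408, 95% interval -2.05 to -0.25), or 2.22-fold lower in KO. The limma adjusted p was 0.795 and the exact permutation p was 0.0357. Limma's moderated fit, which borrows spread from other clusters, gave an unadjusted p of 0.0175. Least squares without moderation, which uses the spread of E2f8 alone, gave 0.0691. The difference was -0.80 without KO array 4 and -1.39 without KO arrays 1 and 2. Its within-group SD of 0.712 was the largest among the members, whose median was 0.284. E2f7, the other atypical E2F, was dim, at 2.612, 2.955 and 2.788 in WT and 2.786, 3.108, 3.156, 3.498 and 2.770 in KO, and had a log2 difference of 0.28 (95% interval -0.13 to 0.68). E2f1, an activator of replication genes, had a log2 difference of 0.05 (95% interval -0.37 to 0.47).

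**Figure D2:**
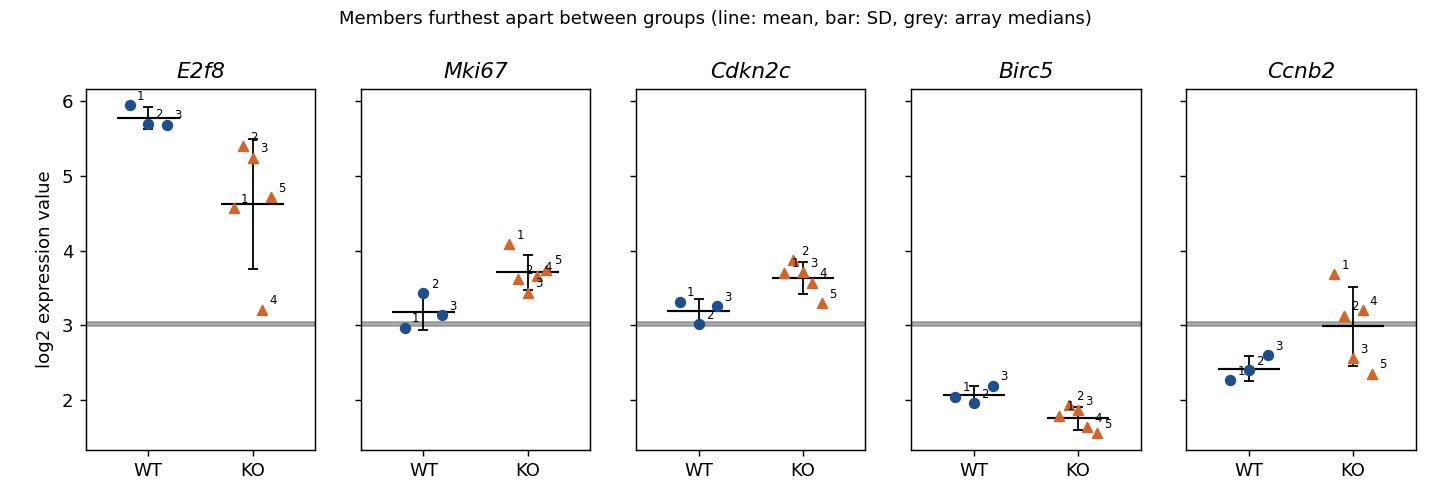
Log2 values of the 5 members with the smallest unadjusted p from limma, with WT as circles and KO as triangles. Replicate numbers stand beside the points, with lines for the mean and bars for the SD. E2f8 is lower in all 5 KO livers and widest there, Mki67 is higher in all 5, and Birc5 lies below the grey band of array medians in every liver.

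Across all 36 members, KO and WT livers were compared with limma in a fit to all 23521 single-symbol clusters. At an adjusted p of 0.05 no member passed (0 of 36), and 0% of all clusters did. At an unadjusted p of 0.05, 4 members passed (11.1%), which were Mki67, Cdkn2c, E2f8 and Birc5, against 6.08% of all clusters. They were 2 higher in KO, where 2.75% of all clusters were, and 2 lower, where 3.32% were. In 3 members (8.33%) the groups did not overlap, against 4.43% of all clusters. These were 1 higher (1.99% of all clusters) and 2 lower (2.44%). These are counts of few genes: without WT array 1 the count at the unadjusted threshold was 1, against 5.43% of all clusters. Leaving out WT array 1 or WT array 3 gave 5 non-overlapping members, while the share of all clusters was then 10.5% or 10.3%.

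Direction was mixed. Of the 36 members, 15 had a higher and 21 a lower mean in KO, with a median log2 difference of -0.02, where 49.6% of all clusters were higher and the median was 0.00. The median size of a difference, regardless of sign, was 0.106 for the members and 0.134 for all clusters. The sign of 21 members turned when 1 array or another was left out. The half-width of the 95% interval had a median of 0.424 on the log2 scale, or 1.34-fold, and reached 0.904 for E2f8. For 33 members the interval lay within a log2 change of 1 in either direction, the exceptions being E2f8, Ccnb2 and Rrm2. For members near, below or crossing the array median, the interval bounds the difference in array values and not the change of their RNA. In bulk liver, a change in the number of cycling cells and a change in RNA per cell cannot be told apart.

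**Figure D3:**
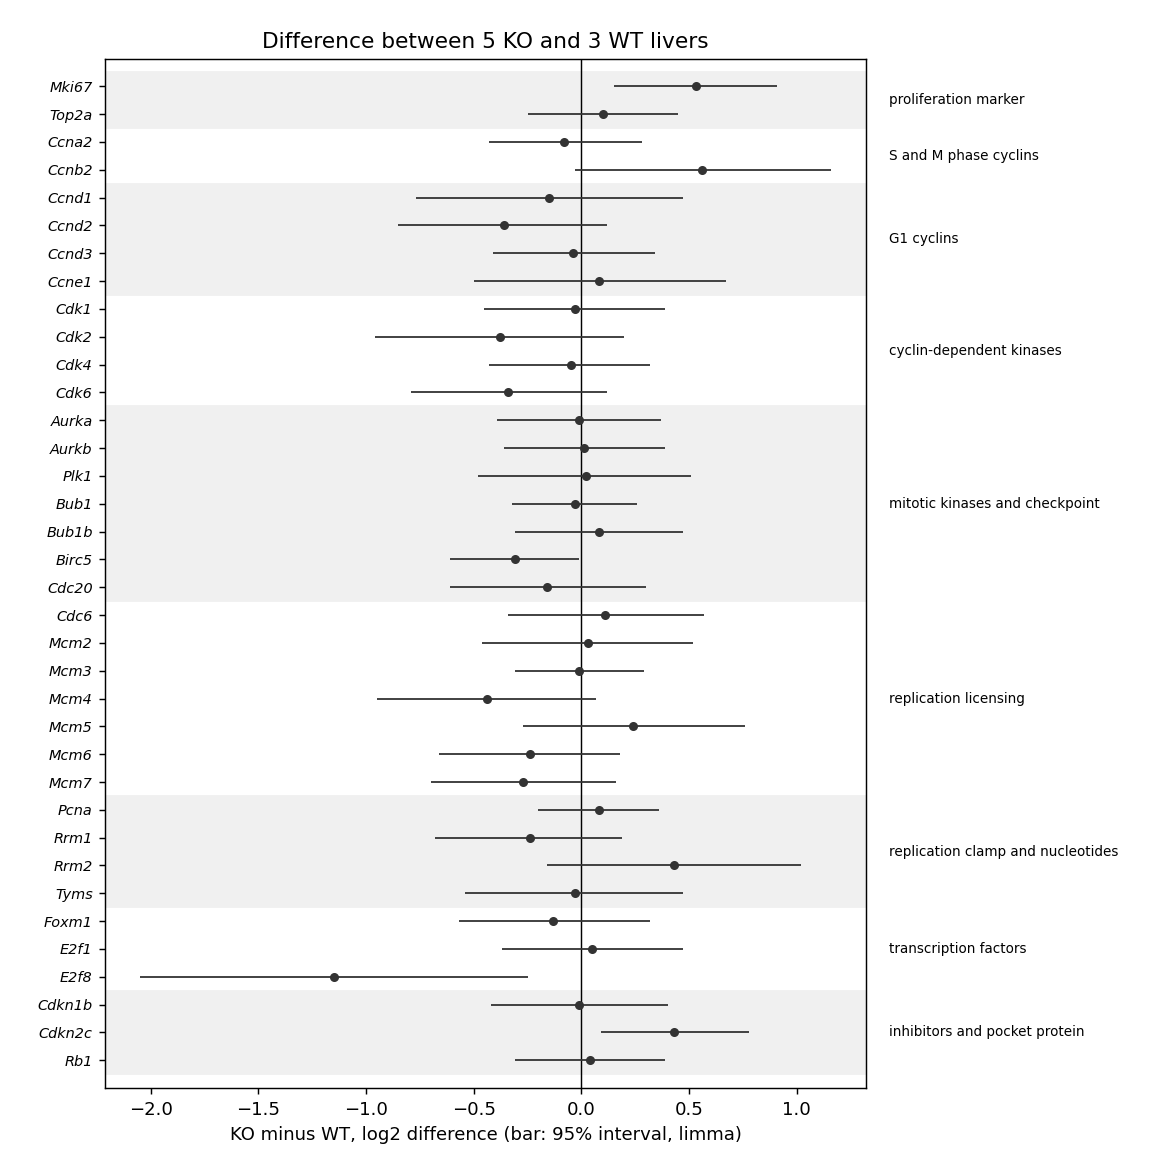
KO minus WT log2 difference of each member with its 95% interval from limma (5 KO and 3 WT livers), in the same order by role. The intervals of Mki67, Birc5, E2f8 and Cdkn2c lie to one side of 0 and all others cross it.

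Individual livers did not move as a block. KO array 1 had the highest value of all arrays in 10 of 36 members (27.8%), compared with 13.3% of all clusters. These 10 were Mki67, Top2a, Ccna2, Ccnb2, Ccne1, Cdk2, Aurkb, Bub1b, Pcna and Tyms. KO array 1 was also the lowest in 7 members (19.4%, against 12.9% of all clusters), Ccnd1 among them. Among the 11 members with a mean of at least 5, KO array 4 was lowest in 4, which it was in 27.0% of all clusters at that level. Against the WT mean, the median member differed by 0.01, 0.01, -0.08, -0.02 and -0.03 in KO arrays 1 to 5.

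**Figure D4:**
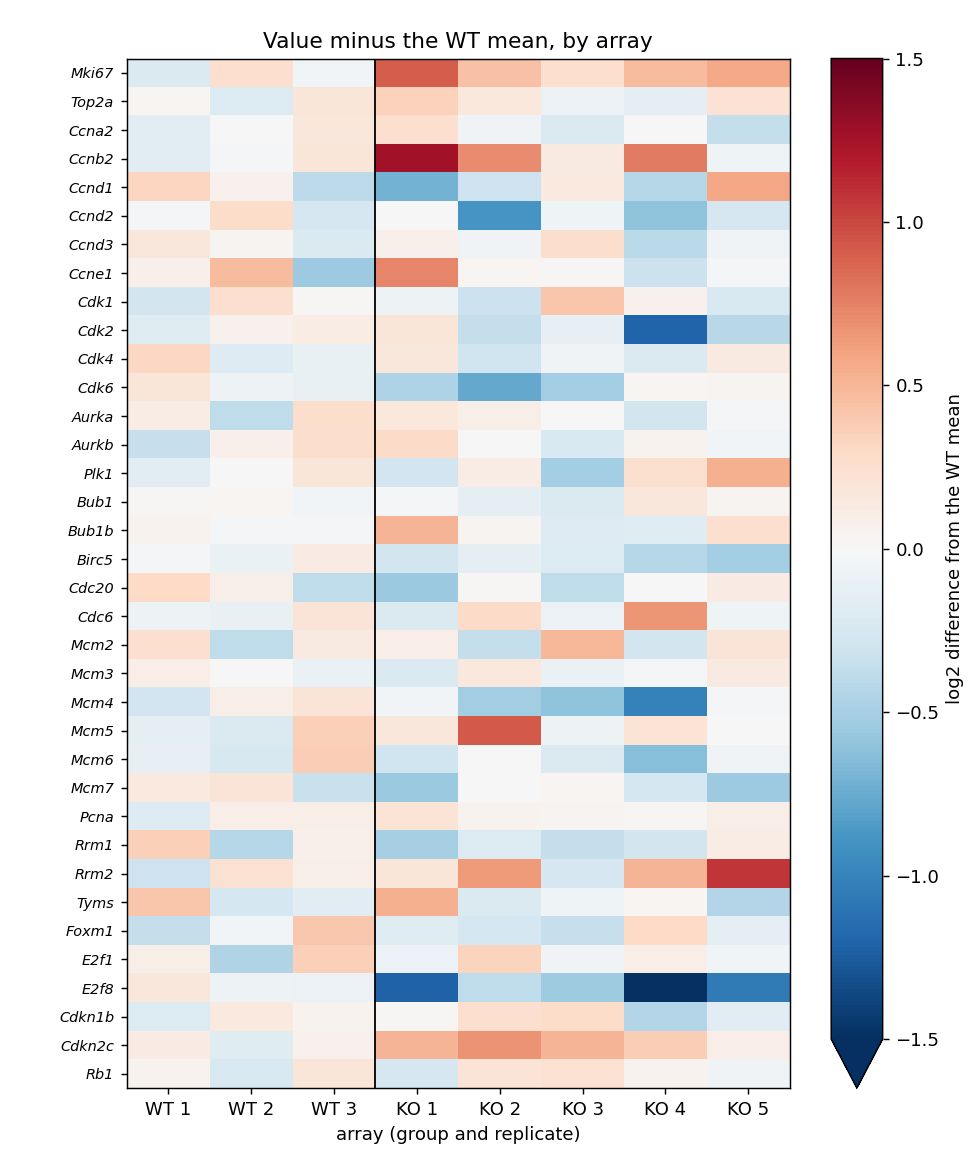
Log2 value of each member minus its WT mean, by array, with WT left of the line and KO right of it, red for higher and blue for lower, E2f8 in KO array 4 exceeding the scale. No KO column is red or blue throughout. The rows of Mki67 and Cdkn2c are red and those of E2f8 and Birc5 blue in all 5 KO livers. Pcna (red) and Mcm4 (blue) also lie on one side of the WT mean in all 5, faintly in some, though their groups overlap.

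Markers of other cells that divide or are rich in dividing precursors were set beside these values. Granulocyte precursor markers (8 of 8 measured) had mean levels from 1.81 to 2.96, with 5 higher and 3 lower in KO. Their summed level, on the log2 scale, was 5.41 to 5.48 in WT and 5.26 to 5.68 in KO. T and NK cell markers (9 of 9) summed to between 5.92 and 6.29 in WT and between 6.15 and 6.29 in KO, and B and plasma cell markers (6 of 7) to between 5.25 and 5.57 and between 5.27 and 5.52. Erythroid precursor markers, of which 5 of 12 were measured and the globin genes were not, summed to between 6.45 and 7.22 in WT and between 6.35 and 6.81 in KO. Tfrc, with a mean of 6.14, made up most of that sum, and the other erythroid markers had means from 2.08 to 3.43. Macrophage markers (7 of 7, from 4.84 to 7.32) summed to between 8.96 and 9.43 in WT and between 8.88 and 9.94 in KO. Of them 5 were higher and 2 lower in KO. The sums of KO arrays 1, 2 and 3 (9.77, 9.49 and 9.94) were above every WT array. Those of KO arrays 4 and 5 (8.88 and 9.07) were not. At or below the array median on every array were 4 granulocyte, 2 T and NK, 1 B and plasma cell and 2 erythroid markers, and 0 macrophage markers. The groups overlapped in each of these sums, and the part of these cells in the values of Mki67 and Ccnb2 was not tested.

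A wider list of 87 other cell cycle genes, of which 82 were measured, was counted in the same way. With limma 0 passed the adjusted threshold, and 5 passed at an unadjusted p of 0.05, which is 6.1% and close to the 6.08% of all clusters. They were 2 higher and 3 lower, and the count was 2 without KO array 1. By mean, 39 were higher and 43 lower, with a median log2 difference of -0.02. Among other mitotic genes, 12 of 25 were at or below the array median on every array and 3 were above it on every array. Of the 25, 0 passed at the unadjusted threshold, with differences from -0.29 to 0.28. Among other replication genes, 16 of 26 were above the median on every array and 4 passed at the unadjusted threshold, 2 in each direction.

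Prim1, the catalytic subunit of primase, had the smallest p of this list. It read 3.868, 3.822 and 3.359 in WT and 3.043, 3.066, 3.360, 3.144 and 2.515 in KO, with KO array 3 a shade above WT array 3 and the other KO arrays below all WT arrays. Its log2 difference was -0.66 (SE 0.2, limma adjusted p = 0.795). Gmnn, geminin, the inhibitor of origin licensing, had a log2 difference of -0.55 (SE 0.22). Dut, the dUTPase, was higher by 0.45 (SE 0.165) and Gins2, a part of the replicative helicase, by 0.38 (SE 0.152). Gins2 and Prim1 were dim, above the array median on 6 and 7 of the 8 arrays. Tfdp1, the dimer partner of E2F factors, read 7.004, 6.779 and 6.998 in WT and 6.416, 6.283, 6.495, 6.661 and 6.924 in KO. Its log2 difference was -0.37 (SE 0.162), and that of Lin37, a DREAM complex subunit, was -0.32 (SE 0.158). Dnmt1, the maintenance DNA methyltransferase, named after its values were seen, was the 1 gene of 82 (1.22%, against 4.43% of all clusters) whose groups did not overlap, from 5.500 to 5.729 in WT and from 5.233 to 5.461 in KO (log2 difference -0.24, SE 0.123).

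Cdkn1a, a target of Trp53 and inhibitor of cyclin-dependent kinases, was named for its role. It read 8.477, 8.380 and 7.963 in WT and 9.396, 8.474, 7.496, 8.306 and 8.898 in KO. KO array 1 was highest and KO array 3 lowest of all 8, with WT in between, and the log2 difference was 0.24 (95% interval -0.53 to 1.01).

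**Figure D5:**
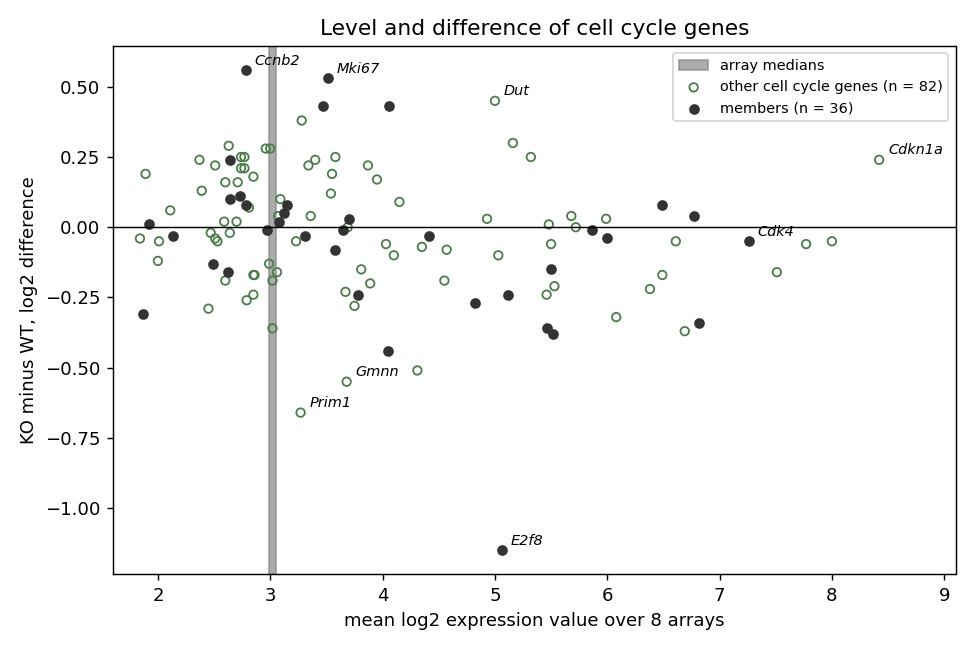
Mean log2 value over 8 arrays against the KO minus WT log2 difference for the 36 members (filled) and 82 other cell cycle genes (open), with the grey band at the array medians. E2f8 at -1.15 lies apart from the rest, which fall between -0.66 and 0.56 at all levels.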

How the data were processed

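Liver RNA from 3 WT and 5 KO mice was measured on 1 array per sample, with groups and replicate numbers taken from the sample titles. The authors deposited log2 expression values for 41345 transcript clusters. RMA and the oligo package are named in the submitters' processing notes, and Expression Console in the series' design text. For versions, settings, filters and genome build no source used here gives an entry. RMA is known to compress differences of dim clusters. The log2 scale was judged from the range of the values, 0.409 to 13.27.

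Clusters were named from the platform annotation: 23521 had 1 gene symbol, 1814 had several and 16010 had none listed. All 36 member symbols matched their Entrez gene in RefSeq's table (GRCm38.p6). KO and WT were compared by limma 3.58.1 (R 4.3.3, lmFit and eBayes, 6 residual degrees of freedom), as a two-sided test. P-values were adjusted by Benjamini-Hochberg over those 23521 clusters, with a threshold of 0.05. Single genes were also compared by a two-sided exact permutation test over 56 divisions of the arrays. The fit was tested on simulated data. The number of arrays limits the precision. No slide or scan date was given, so no batch was tested.

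Members and lists were chosen with earlier results of these data known. Array-by-array values were given for members with an unadjusted p under 0.05, non-overlapping groups or a log2 difference over 0.5, for the 6 highest means, and for the D-type cyclins, proliferation markers, inhibitors and Rb1. Of the other genes, those with the 6 smallest p and Cdkn1a were named, and E2f7 was added after its values were seen. Alternatives covered the eBayes settings, least squares without moderation, dim clusters, all clusters and a gene's dimmest cluster. They also covered centring, quantile normalization, the replicate number as a block, and arrays left out.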

Additional observations from a re-analysis of the deposited data

Results flagged for a closer look

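Mcm5, a subunit of the replicative helicase, was the 1 of 36 members in which a KO array lay far from the other KO arrays. KO array 2 read 3.402, and its gap to the next array was 0.713 of the range of the 5 KO arrays, just past Dixon's 95% critical value of 0.71. The other KO arrays read 2.651, 2.409, 2.694 and 2.491, and the WT arrays 2.341, 2.274 and 2.842. Chance gives such a gap in about 1 of 20 groups, and 36 groups were examined.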

How the results depend on the processing

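No member passed the adjusted threshold under any of the alternatives that give an adjusted p, where the lowest adjusted p of a member was 0.543. The 4 members at an unadjusted p of 0.05 became 1 among clusters with a mean of at least 5 (8.26% of all such clusters). There 11 members were left. They became 1 to 6 when single arrays were left out (5.00% to 7.22% of all clusters). With least squares without moderation they became 3 (5.92% of all clusters), E2f8 no longer among them. The 3 members without overlap became 1 among those brighter clusters (6.05%) and 3 to 5 when single arrays were left out (6.38% to 10.5%). Separated groups cannot come to overlap when an array is left out, so that last count could only stay or rise. The median log2 difference lay between -0.148 (clusters with a mean of at least 5) and 0.009 (quantile normalization). The count of members at or below the array median lay between 4, with the 95th percentile of olfactory receptors as the limit, and 8. Among the other cell cycle genes the 5 at the unadjusted threshold became 10 with the replicate number as a block (7.73% of all clusters, against 6.08%), 3 without KO 1 and KO 2 together, and 2 to 7 when single arrays were left out. With the block, KO arrays 4 and 5 had no WT partner and did not enter the difference. It then compared arrays 1 to 3 of each group. Again 4 members passed at the unadjusted threshold. E2f8 and Cdkn2c were joined by Cdk6 (-0.59) and Ccnb2 (0.70) in place of Mki67 and Birc5. Limma's unadjusted p with the block was about 0.05 for Ccnb2 and 0.0547 for Mki67, so both lay close to the threshold. The overlap of groups does not involve the block. Replicate numbers did not pair the samples: deviations of same-numbered WT and KO arrays correlated at -0.0477, 0.0157 and 0.0212. Of 612 member differences recomputed, 0 moved by more than the within-group SD of their gene. Leaving out a single array cannot move a difference further than that SD, and several settings leave it unchanged. This count is therefore no test of stability. In all settings 15 members kept their sign, among them E2f8, Mki67, Cdkn2c and Birc5. Dim members limit what these arrays can show, since values near the array median are not shown to be above background.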
